A study of Homo sapiens with 6 samples.

Results

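Regions of open chromatin that lie where such regions crowd together were described in 22Rv1, a cell line established from a human prostate carcinoma, over 0 h, 1 h and 24 h of a FOXA1 dTAG experiment. The peaks of 6 ATAC-seq libraries, 2 per time, were merged on the autosomes and X wherever they shared at least 1 bp, which gave 167726 regions in hg19. The genome was divided into fixed windows of 1 Mb, and a window was kept when at least 80 of its regions held a peak in both 0 h libraries. That rule kept 49 of 2888 windows with any region (1.70%). They hold 5892 regions (3.51% of all), of which 4248 were held by both 0 h libraries, while 161834 regions lie elsewhere. Each group is labelled FOXA1_dTAG, with a time of 0 h, 1 h or 24 h. All 6 libraries thus share the tagged FOXA1, and the sources used here name neither the degrader nor its dose, nor whether the line is a single clone. They do not say whether the replicates were separate cultures, so p-values measure only the spread between these libraries, which may be technical. The level of FOXA1 protein was not measured in these files.

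ATAC-seq uses a transposase that cuts DNA where nucleosomes leave it free, so a pile of reads marks an open promoter, enhancer or insulator. FOXA1 is a forkhead pioneer factor that binds compacted DNA at luminal prostate enhancers and precedes the androgen receptor there; the dTAG system degrades a tagged protein once a bifunctional compound links the tag to a ubiquitin ligase. Open regions are not spread evenly along chromosomes. They crowd in gene-rich segments, where promoters lie close together and many are open in most cell types, and thin out in gene deserts, where the open sites are mostly distal and tissue-specific. Gene names, promoters and sequence need an hg19 annotation or genome, which was not used here, so windows and regions are given by position.

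The windows were chosen on peak density in the 0 h libraries, so their 0 h density, and any loss or gain against 0 h, is given as a description with no test. The 1 h and 24 h libraries took part in the merge but not in the choice of windows. Most regions held by both 1 h libraries were also held by both 0 h libraries, so the choice can still bear on later shares. The deposited lists hold no read counts. The commonest local background among peaks, which follows a library's depth and fragment length, was 1.62 and 0.915 reads at 0 h, then 1.40 and 1.38 at 1 h, with 1.08 and 0.958 at 24 h. With the number of reads unknown, a region with no peak is one not called at that depth, and not shown to be closed.

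One window stood apart from the other 48. In 4:49-50 Mb the median local background of the peaks was 22.0 and 13.4 reads at 0 h, then 18.5 and 19.1 at 1 h, with 17.6 and 15.3 at 24 h. In 0h replicate 1, the medians of the other 48 windows ran from 2.71 to 8.35 reads, and in 24h replicate 1 from 1.98 to 6.31. Its peaks were low in fold over that background, with median percentiles within their lists of 4.71 and 6.30 at 0 h, then 3.72 and 5.93 at 1 h, with 3.20 and 4.43 at 24 h, below every other window in all 6 libraries. Its 154 regions, the most of any window, lay between 49002323 and 49659839, beside the centromere of chromosome 4, and were separated by a median of 1524 bp against 3953 to 7343 bp in the other windows. Some counts are therefore also given without it. Then 5738 regions remain, of which 3473 had a peak in all 6 libraries. Of the 4146 held by both 0 h libraries, 279 (6.73%) had no peak in either 24 h library.

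The 49 windows lay on 18 chromosomes. Chromosome 1 had 11, chromosome 19 had 8, and chromosomes 16 and 17 had 4 each, while chromosomes 2, 3, 13, 21 and X had none. On chromosome 19, 13.8% of the windows were this dense, on chromosome 22 5.56% and on chromosome 17 5.00%. RefSeq lists 1451, 451 and 1169 protein-coding genes for these, or 25.0, 12.5 and 14.6 per window with any region. Chromosome 13, with no window this dense, has 338 genes, or 3.48 per window. Chromosomes 2 and 3 also had none, with 1254 and 1066 genes, or 5.18 and 5.44 per window. Together chromosomes 16, 17, 19 and 22, among the most gene-rich, held 18 windows with 2080 regions, and the gene-poor chromosomes 4, 13 and 18 held 2 windows with 278. Adjacent windows formed 7 runs, which took in 17 windows. The longest were 3 windows each, at 12:52-55 Mb, 16:0-3 Mb and 19:45-48 Mb. Neighbouring regions were separated by a median of 5430 bp in the dense windows and 9191.5 bp elsewhere.

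The densest window was 19:1-2 Mb, with 111 regions held by both 0 h libraries. Single libraries held 118 and 116 of its regions at 0 h, then 116 and 114 at 1 h, with 107 and 104 at 24 h. Next came 19:49-50 Mb with 105, where the libraries held 111 and 113 regions at 0 h, then 109 and 107 at 1 h, with 104 and 106 at 24 h. After the chromosome 4 window with 102 followed 1:151-152 Mb with 98, and 1:156-157 Mb, 11:65-66 Mb and 5:148-149 Mb with 97 each. In both chromosome 19 windows the 24 h counts lay below the 0 h counts, without overlap. The same held over all regions, with 115855 and 118251 at 0 h and 97946 and 110287 at 24 h. These windows were also picked for their 0 h counts, so the lower later counts are not read as a change.

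Regions in dense windows carried more reads at their summits than other regions, on a higher local background. The deposited fold and −log10 p of a peak together give back its summit pileup and the local background that MACS2 set it against. Median summit pileup in the dense windows was 37 and 30 reads at 0 h, then 36 and 36.5 at 1 h, with 32 and 29 at 24 h, against 21 and 16, 18 and 19, and 18 and 15 reads elsewhere. Median background was 4.98 and 2.99 reads at 0 h, then 4.61 and 4.51 at 1 h, with 3.73 and 3.11 at 24 h, against 2.12 and 1.17, 1.81 and 1.78, and 1.53 and 1.24 elsewhere. The background was thus 2.34 to 2.56 times that of other regions, and the pileup 1.76 to 2.00 times. The ratio of the background changed little without the chromosome 4 window, at 2.31 to 2.51.

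Because pileup and background were higher together, the fold over background did not set dense windows apart. Median fold percentiles, each within its own list, were 46.3 and 53.6 at 0 h, then 49.9 and 50.9 at 1 h, with 48.1 and 52.5 at 24 h, against 51.1 and 52.3, 50.6 and 52.4, and 51.8 and 51.5 for other regions. In 4 of the 6 libraries the dense windows were lower and in 2 higher. Peaks were wider in the dense windows, with medians of 469 and 372 bp at 0 h, then 504 and 470 bp at 1 h, with 435 and 413.5 bp at 24 h, against 387 and 285, 414 and 371, and 342 and 328 bp elsewhere. Over the 4 libraries of 1 h and 24 h, which the choice of windows did not use, background, pileup, width and the share of strong peaks were higher in the dense windows in 4 of 4 libraries. The choice may still favour this direction, since most regions held by both 1 h libraries were also held by both 0 h libraries. The p-values below are therefore not independent of the choice. Strong means a −log10 q of at least 10, and 64.1% of dense peaks were strong on average against 50.1% of the others, a difference of 14.04 ± 1.93 percentage points (SD, n = 4). The exact two-sided sign-flip permutation p was 0.125 for each of these 4 quantities, the smallest that 4 libraries allow, and 0.156 after adjustment over 5 quantities. For the median fold percentile the difference was −1.21 ± 1.93 (SD, n = 4), with an exact permutation p of 0.375.

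**Figure D1:**
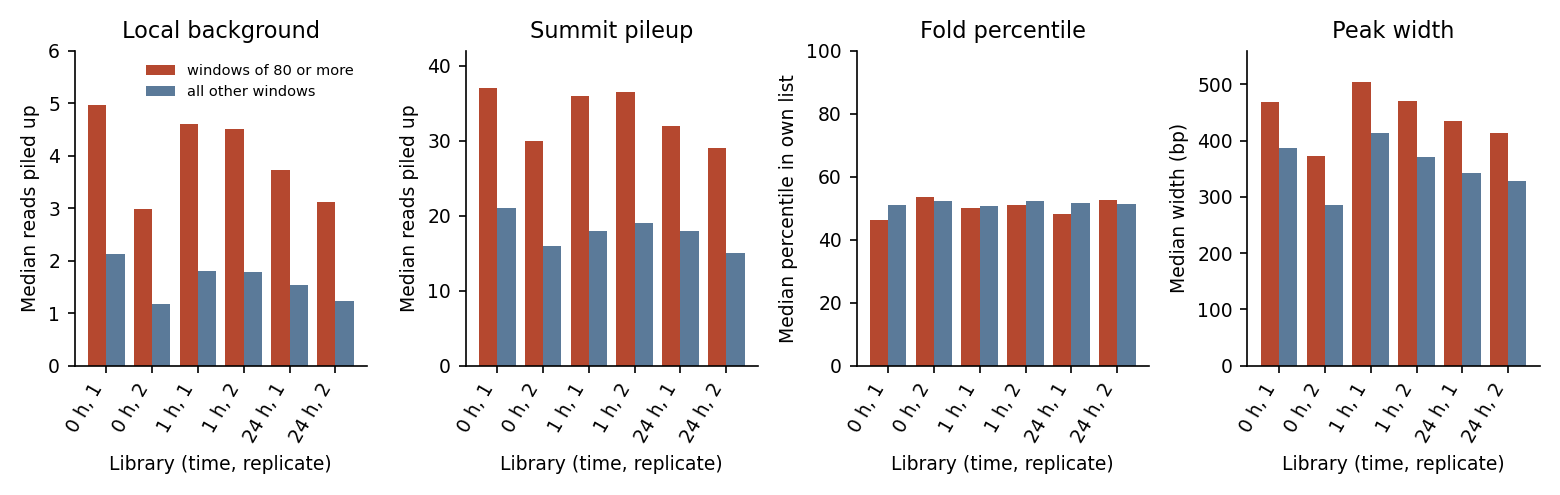
Medians over the regions of each library, with windows of 80 or more regions left and all other windows right in each pair: local background and summit pileup in reads, percentile of fold in the library's own list, and peak width in bp. Background, pileup and width stand higher in the dense windows in all 6 libraries, while the fold percentiles lie between 46.3 and 53.6 in both sets.

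Local background was higher, and loss lower, in each denser class of windows, without a step at 80. In windows with 0 to 19, 20 to 39, 40 to 59, 60 to 79, and 80 or more regions, 30.8%, 38.97%, 46.2%, 53.2% and 60.2% of regions had a peak in all 6 libraries. Since the classes count regions held by both 0 h libraries, that order is in part set by the classes and is given as a description. The median background in 1h replicate 1 was 1.40, 1.50, 2.10, 3.08 and 4.61 reads in the same order. Among regions with a peak in both libraries of 1 h, 9.595%, 7.55%, 5.81%, 4.40% and 3.38% had no peak in either 24 h library. The libraries of 1 h and 24 h behind this loss did not enter the choice of windows. Most of the regions counted were however also held by both 0 h libraries, so the choice may still favour this order. The background ran in the opposite order to the loss, and its part in that order was not tested.

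**Figure D2:**
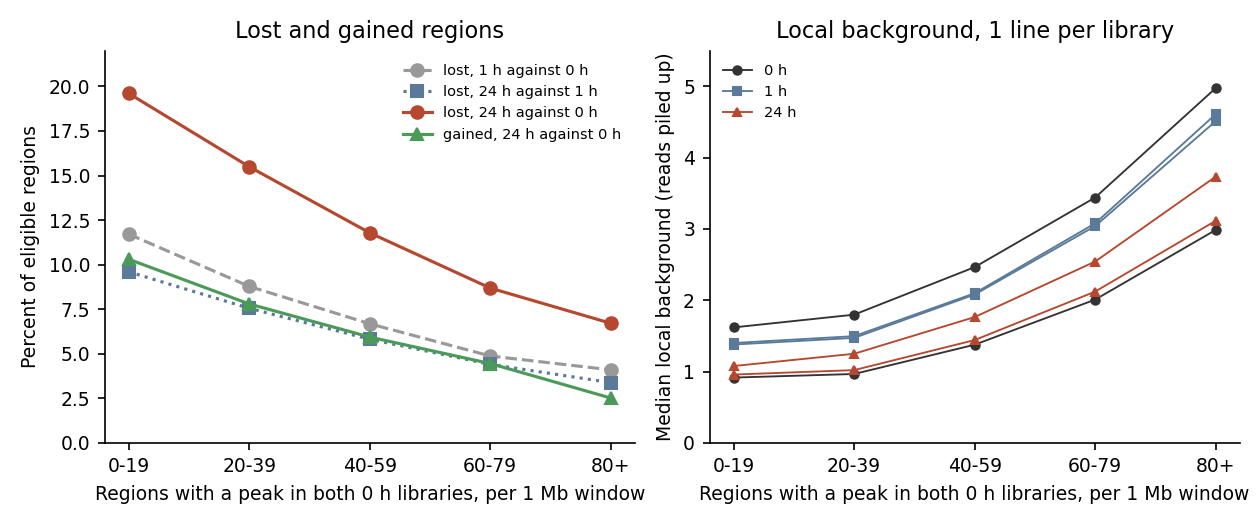
Left, percent of regions lost (peak in both earlier libraries, none in either later one) or gained (the reverse) by the number of regions per 1 Mb window. Right, median local background per library; the loss at 24 h against 0 h is 6.71% in the densest windows and 19.6% in the sparsest, and the background in 0h replicate 1 is 4.98 and 1.62 reads.

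Most regions of the dense windows that were open at 0 h had a peak in every library. A peak in all 6 libraries was found for 3548 of the 4248 regions (83.5%), against 72.6% of other regions. Of all 5892, 902 (15.3%) had a peak in 1 library only, against 22.7% elsewhere. At 0 h, 65.4% of the 4248 were strong in both libraries, against 53.9% elsewhere. By library, the dense windows held 4702 and 4684 regions with a peak at 0 h, then 4461 and 4530 at 1 h, with 4271 and 4396 at 24 h. The 0 h libraries held the most, which the choice of windows by 0 h counts favours, and the 24 h libraries the fewest. The nearest counts of 1 h and 24 h were 4461 and 4396, so this order is not read as particular to dense windows. Over all regions the 0 h libraries also held the most, with 115855 and 118251. There the counts were 109141 and 113145 at 1 h and 97946 and 110287 at 24 h, so the later times overlapped.

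At 24 h against 0 h, 285 of the 4248 regions (6.71%) were lost, meaning that both 0 h libraries held a peak there and neither 24 h library did, where 13.1% of all 99494 eligible regions were. Gains, the reverse case, numbered 98 of 3899 regions that both 24 h libraries held (2.51%), against 6.54% of all. Among 2778 regions strong at 0 h in both libraries, 43 (1.55%) had no peak at 24 h, against 4.02% of all, and 4 of 2504 strong 24 h regions (0.160%) had none at 0 h, against 0.748%. Outside the dense windows 13.4% were lost and 4.16% of strong ones. The rule used the 0 h lists, so these shares are descriptions. Taking one library of each time, 15.7% to 16.7% of the dense regions of a 0 h library were missing from a 24 h library, beyond the 9.31% to 9.66% between the 0 h replicates and the 8.71% to 11.3% between the 24 h replicates. For other regions the same pairs gave 24.1% to 30.2%, against 14.3% to 16.1% and 11.2% to 21.4% between replicates. In the reverse direction, 8.24% to 10.2% of the dense regions of a 24 h library were missing from a 0 h library, overlapping both replicate ranges. The 24 h lists were shorter, and the 0 h replicates also chose the windows, so the larger share missing at 24 h is not read as a change.

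The excess of losses over gains in the dense windows depended on the length of the lists. With every list shortened to 101755 peaks by fold, 152 (4.47%) were lost and 187 (5.42%) gained, so gains were then the more frequent. The full lists gave 98 gains, so part of the 187 lacked a 0 h peak only after the shortening. Among other regions 11.4% were then lost and 9.29% gained, so losses were still the more frequent there; the difference between the sets was not tested. Without 0h replicate 1 or 2, losses were 11.8% or 11.7% and gains 4.46% or 4.23%. Without 24h replicate 1 or 2, losses were 9.89% or 10.7% and gains 7.05% or 5.55%, since fewer libraries then had to meet each condition. Under all of these, the share lost was lower in the dense windows than elsewhere.

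The lost regions of dense windows had lower and narrower peaks at the median, although 43 of the 285 were strong in both 0 h libraries. In the 0 h libraries their median fold percentiles were 18.8 and 24.6, against 58.3 and 63.6 for the 3548 regions open in all 6 libraries. Their median widths were 274 and 190 bp against 584 and 480 bp, and their median summit pileups 18 and 14 reads against 51 and 39. Lost regions outside the dense windows had higher fold percentiles, 34.3 and 33.4, but lower pileups, 15 and 11 reads. At 1 h, 120 of the 285 had no peak in either library, 86 a peak in 1 and 79 in both. Of the 98 gained regions, 45 had no peak at 1 h, 29 a peak in 1 library and 24 in both, and their median fold percentiles at 24 h were 17.5 and 24.6.

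The strongest lost region, 19:45713906-45714505, had folds over background of 10.7 and 14.1 at 0 h, 4.20 and 5.34 at 1 h, and no peak at 24 h. Its percentiles were 84.7 and 93.2 at 0 h and 22.4 and 39.7 at 1 h, so both 1 h values already lay below both 0 h values. The region 16:67380278-67380601 had folds of 11.7 and 10.9 at 0 h, 4.21 and 5.61 at 1 h, and no peak at 24 h. At 15:40933025-40933475 the folds were 10.3 and 11.5 at 0 h and 7.499 in 1h replicate 1, with no peak in 1h replicate 2 or at 24 h. At 11:67316085-67316448 the folds were 12.3 and 9.48 at 0 h and 3.36 in 1h replicate 2, the only later peak. At 1:151464521-151465053 they were 11.01 and 10.2 at 0 h and 4.27 in 1h replicate 2, again the only later peak. All 5 had lower folds at 1 h, where a peak was called at all. They were picked for high 0 h percentiles among regions without a peak at 24 h. Lower values at 1 h are in part set by that choice and carry no test.

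Gains reached lower levels. The strongest, 8:8199900-8200205, had no peak at 0 h, folds of 4.58 and 7.15 at 1 h, and 9.58 and 9.39 at 24 h, where its percentiles were 74.5 and 75.9. The next, 12:54164073-54164360, had no peak at 0 h or 1 h, and folds of 8.91 and 8.32 at 24 h. The other 3 named by the rule, 16:1895982-1896293, 5:148459525-148459757 and 14:105896956-105897218, each had a peak in 1h replicate 2 and none in 1h replicate 1. Their folds at 24 h were 8.66 and 8.17, 8.18 and 7.15, and 7.02 and 6.74.

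At 1 h against 0 h, 174 of the 4248 regions (4.10%) were lost, against 7.48% of all, and 89 of 4054 (2.20%) gained, against 3.93%. Strong losses numbered 14 of 2778 (0.504%), against 1.51% of all. No strong gain was found among 2736 regions, and over all regions the share was 0.0338%. That count of 0 allows a share of up to 0.110% only if regions are independent, which was not tested. With lists of one length, strong gains at 1 h were 15 of 2597 (0.578%), above the 0.315% of other regions. As the full lists gave 0, these regions lacked a 0 h peak only after the lists were shortened by fold. In single pairs, 1.14% to 2.16% of the strong dense regions of a 0 h library were missing from a 1 h library, beyond the 0.131% to 0.332% between 0 h replicates and the 0.207% to 0.437% between 1 h replicates. For strong other regions the same pairs gave 3.16% to 4.28%. In the reverse direction, 0.0692% to 0.235% of the strong dense regions of a 1 h library were missing from a 0 h library, not beyond either replicate range. The 1 h lists were shorter, and the 0 h replicates also chose the windows, so the larger share missing at 1 h is not read as a change. Of the 174 losses 11 lay in the chromosome 4 window; without it 163 of 4146 (3.93%) were lost. Without single libraries, 6.87% to 9.31% were lost and 3.68% to 6.51% gained. With lists of one length, 110 (3.24%) were lost and 117 (3.39%) gained, so gains were then the more frequent, against 6.90% lost and 5.36% gained among other regions.

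The strongest region lost at 1 h was 16:67369925-67370351, with folds of 10.3 and 7.83 at 0 h and no peak in any later library. The other 4, 1:161794392-161794761, 1:27489612-27489979, 17:7648405-7648737 and 17:79034891-79035220, likewise had no later peak. Their 0 h folds were 7.03 and 10.5, 8.58 and 7.74, 7.35 and 6.50, and 5.91 and 7.28. These are middling levels, with percentiles between 46.0 and 79.2 for these 4. The strongest gain at 1 h was 8:8199900-8200205, already described, and the next, 9:130788978-130789456, had folds of 5.42 and 5.56 at 1 h, with 5.30 and 4.76 at 24 h. The remaining 3, 15:40039567-40039846, 16:67717796-67718169 and 7:100316041-100316348, had folds at 1 h of 7.08 and 3.78, 5.49 and 4.62, and 5.35 and 4.82.

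Between 24 h and 1 h, neither of which chose the windows, the dense windows held a like share of each list. It was 4.36% and 3.99% at 24 h and 4.09% and 4.00% at 1 h, with 4.06% and 3.96% at 0 h. The 24 h values spanned those of 1 h, and the difference of means was 0.128 percentage points (exact two-sided permutation p = 1, adjusted 1 over 2 tests, n = 2 each; the smallest p this design allows is 0.333). The median fold percentile averaged 50.3 ± 3.06 at 24 h and 50.4 ± 0.699 at 1 h (SD, n = 2 each), with an exact permutation p of 1. Losses from 1 h to 24 h were 137 of 4054 regions (3.38%), against 6.42% of all, and gains 82 of 3899 (2.10%), against 3.85%. In single pairs 11.8% to 13.7% of the dense regions of a 1 h library were missing from a 24 h library, against 17.9% to 24.2% of other regions; between the 1 h replicates it was 9.12% to 10.5% against 13.8% to 16.9%. Over 2 libraries of 1 h no exact test of that difference could go below p = 0.5. Without single libraries, losses were 6.27% to 8.83% and gains 4.03% to 6.73%, and with lists of one length losses were 88 (2.55%) and gains 117 (3.39%), against 5.62% and 4.92% of other regions.

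Few strong regions differed between 24 h and 1 h. One strong 1 h region had no peak at 24 h, 0.0365% of 2736 against 0.0896% of all, and 2 of 2504 strong 24 h regions (0.0799%) had none at 1 h, against 0.151%. Without the chromosome 4 window the gains were 1 of 2441, and with lists of one length 15 of 2419 (0.620%), above the 0.392% of other regions. As the full lists gave 2, most of these 15 lacked a 1 h peak only after the lists were shortened by fold. The lost one, 1:228230998-228231493, had folds of 7.88 and 6.90 at 0 h and 6.42 and 9.42 at 1 h. Among all gains the strongest was 12:54164073-54164360, given above. It was followed by 19:46704571-46704967 with folds of 7.60 and 5.55 at 24 h and 19:47016090-47016303 with 6.46 and 5.93, both without a peak at 0 h or 1 h.

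Regions that kept a peak in all 6 libraries mostly kept their rank. Over the 3548 in dense windows, the mean fold percentile at 24 h minus that at 0 h had a median of −0.881, with 80% of regions between −15.3 and 9.09; for other regions these were −1.13, and −21.9 to 16.01. Replicates of one time differed by a median of 6.61 percentiles at 0 h, 4.97 at 1 h and 6.89 at 24 h. Both 24 h values lay below both 0 h values in 713 regions (20.1%), against 26.4% of all, and above them in 575 (16.2%), against 20.0%. At 24 h against 1 h, 863 (24.3%) lay below, against 27.3%, and 580 (16.3%) above, against 16.4%. At 1 h against 0 h, 616 (17.4%) lay below, against 19.2%, and 770 (21.7%) above, against 23.4%. The share above at 24 h against 1 h was thus close to that of all regions. Where times do not differ, 2 libraries against 2 separate fully, in either direction, with a probability of 0.333. These counts are therefore not read as a change.

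Single regions in this set moved far. In 12:54197822-54198652 the folds were 12.0 and 15.97 at 0 h, then 4.39 and 4.96 at 1 h, with 4.61 and 4.52 at 24 h. The percentiles were 89.9 and 96.7 at 0 h, then 24.0 and 33.1 at 1 h, with 18.9 and 21.2 at 24 h, so most of the difference stood at 1 h. At 1:16447104-16448553 the percentiles were 77.4 and 79.4 at 0 h, then 31.2 and 22.4 at 1 h, with 5.04 and 9.94 at 24 h. A second region of the chromosome 12 window, 12:54218892-54219607, had percentiles of 73.5 and 71.4 at 0 h, then 9.27 and 31.2 at 1 h, with 2.85 and 3.22 at 24 h. In 18:55089462-55089958, folds were 15.1 and 15.2 at 0 h, then 10.0 and 7.15 at 1 h, with 5.30 and 4.60 at 24 h. Here the 1 h values lay between those of the other times.

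The largest differences upward were at 16:67628640-67629261, with folds of 4.20 and 4.18 at 0 h, then 5.00 and 7.15 at 1 h, with 10.3 and 12.4 at 24 h. The region 5:148606607-148607096 had 3.95 and 4.06, 4.17 and 7.34, and 9.20 and 10.5 at the 3 times. In 19:45879631-45879946 the 0 h folds were 2.78 and 5.74, those at 1 h 3.33 and 4.34, and those at 24 h 8.16 and 9.599, so 0 h and 1 h overlapped while 24 h stood above both. At 1:27313170-27313680 the folds were 4.47 and 5.11 at 0 h, then 7.97 and 7.11 at 1 h, with 9.24 and 9.53 at 24 h. These 8 regions were picked as the extremes of 3548, so their differences carry no test. The 5 regions with the highest mean percentile over the 6 libraries are high in each of them by that choice. The first, 19:1205227-1206016, had folds of 18.1 and 18.1 at 0 h, then 18.8 and 18.5 at 1 h, with 18.4 and 18.97 at 24 h. The other 4 of the top 5, 17:7909267-7910077, 5:148700094-148700918, 11:65601022-65601862 and 19:49436480-49437216, had percentiles of at least 98.3 in all 6 libraries.

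**Figure D3:**
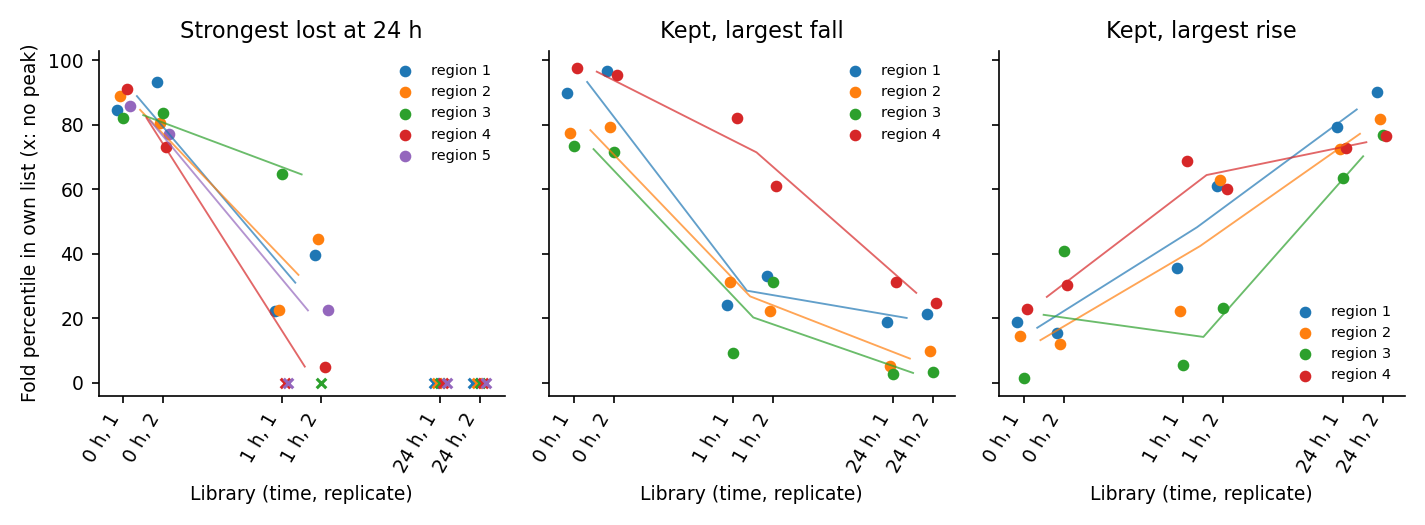
Fold percentile within its own list for single regions of dense windows in each library, with lines through the means of the libraries that held a peak and crosses where none was called; regions are numbered in the order of the text. The 5 strongest lost regions stand at 73.1 or higher at 0 h and have no peak at 24 h, and the 4 kept regions with the largest differences downward stand at 31.2 or lower at 24 h.

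Loss was also set against strength, decile by decile of the 0 h values. When 0 h regions were sorted by mean fold percentile, the share lost at 24 h was lower in the dense windows in 10 of 10 deciles. In decile 3 it was 13.2% of 370 against 29.3% of 9381, in decile 5 7.54% against 16.3%, and in decile 7 2.29% against 7.29%. In decile 10, 0 of 349 was lost, against 2.00%. A count of 0 there allows up to 0.860% only if regions are independent, which neighbouring regions of the same libraries need not be. With the mix of deciles of the dense windows, other regions would have lost 15.01%, against the 6.71% in dense windows. Sorted by −log10 q, other regions lost 10.5% at that mix, and dense windows were lower in 9 deciles. Sorted by summit pileup, other regions lost 7.43%, and dense windows were lower in 9 deciles. At 1 h, other regions lost 8.90% by fold, 5.79% by −log10 q and 3.94% by pileup, against 4.10% in the dense windows, and by pileup the dense windows were lower in 3 deciles and higher in 7. The distance between dense windows and other regions thus differed with the measure used for sorting, and the part of pileup in the lower loss was not tested. The orders by −log10 q and by pileup were tried after the values by fold were seen.

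**Figure D4:**
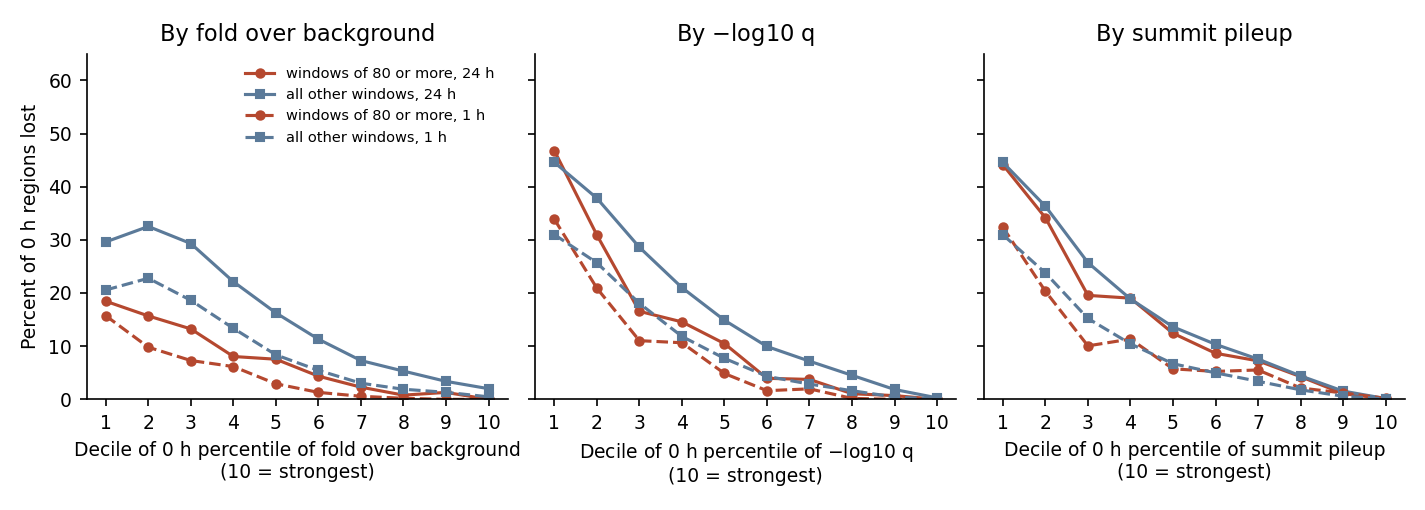
Percent of regions held by both 0 h libraries that had no peak in either 24 h library (solid) or 1 h library (dashed), by decile of the 0 h percentile of fold, −log10 q and summit pileup. Windows of 80 or more regions lie below all other windows when sorted by fold, and the lines lie closer when sorted by pileup, with 6.71% lost at 24 h against 7.43% at the same mix of deciles.

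The gap also differed with the chromosome. On chromosomes 16, 17, 19 and 22, 6.97% of dense regions and 8.30% of other regions were lost at 24 h. On the remaining chromosomes it was 6.55% and 13.97%. On chromosome 19, which holds the most dense windows for its length, 5.69% of 738 dense regions were lost, against 5.92% of 2534 others. On chromosome 1 it was 7.39% of 947 against 12.3% of 9407. In 16 of the 18 chromosomes with a dense window its regions lost less than the others. The exceptions were chromosome 22, with 8.43% against 7.58%, and chromosome 8, with 21.3% against 13.8%.

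Windows varied widely among themselves. The share of 0 h regions lost at 24 h ran from 1.205% to 21.3% with a median of 6.10%, and 2 of the 49 exceeded the 13.1% of all regions. The first of these was 8:8-9 Mb, which lost 17 of 80. Its libraries held 94 and 95 regions at 0 h, then 74 and 79 at 1 h, with 75 and 80 at 24 h, and 12 of the 80 had no peak at 1 h. The other was 1:16-17 Mb with 12 of 83, where the libraries held 94 and 96, 88 and 94, and 85 and 81 regions at the 3 times. Next came 19:45-46 Mb with 11 of 88, of which 4 were strong, 17:79-80 Mb with 10 of 83, and 1:151-152 Mb with 11 of 98. At the low end, 12:53-54 Mb lost 1 of 83, and its libraries held 90 and 88 regions at 0 h, then 84 and 89 at 1 h, with 84 and 92 at 24 h. The windows 9:130-131 Mb, 19:42-43 Mb, 7:100-101 Mb and 9:140-141 Mb lost 2 each. Strong losses were spread over 26 of the 49 windows. Fewer regions were held by both 24 h libraries than by both 1 h libraries in 33 windows, more in 10, and as many in 6. Together the dense windows held 4054 such regions at 1 h and 3899 at 24 h. Over all regions the numbers were 94300 and 87101, so the lower count at 24 h was not particular to dense windows.

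**Figure D5:**
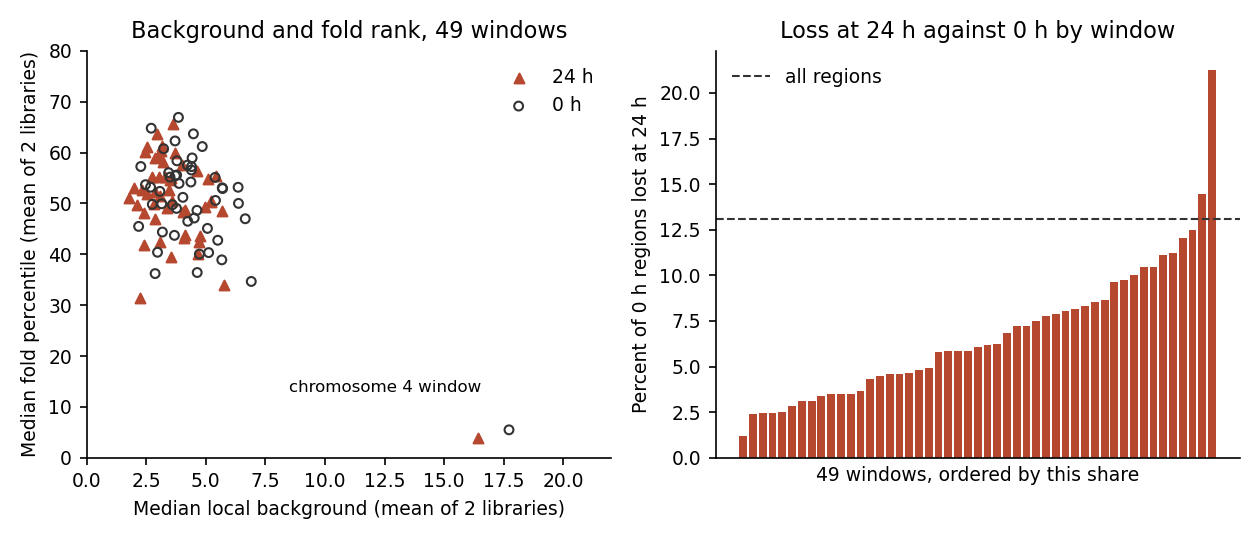
Left, each of the 49 windows by the median local background of its peaks and their median fold percentile, as the mean of the 2 libraries at 24 h and at 0 h, with the chromosome 4 window far from the rest. Right, the percent of each window's 0 h regions lost at 24 h, from 1.205% to 21.3%, with the dashed line at the 13.1% of all regions.

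The limit of 80 divided windows that were alike. The 11 windows with 80 or 81 regions held 1261 regions, of which 59.1% had a peak in all 6 libraries, and 7.56% of their 0 h regions were lost at 24 h. In the 13 windows with 78 or 79, just outside, 1473 regions gave 57.8% and 6.11%. Counted by the same rule in other libraries, 36 windows held 80 or more regions in both 1 h libraries, 30 of them among the 49, and 21 in both 24 h libraries, all among the 49. Windows chosen as the highest at 0 h are lower in other libraries by that choice alone, and the later lists were shorter, so these counts are not read as a change.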

How the data were processed

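Each library has a peak list of its own. The submitters' processing notes name hg19 and the tools MACS2, Bowtie2, fastp and FastQC; for their versions and settings, any read shift and any removal of duplicates, nothing is stated in those sources. The authors' deposited values are the fold (a ratio of summit pileup to local background), −log10 p and −log10 q of each peak, and a score of 10 times the −log10 q, used only to check the columns. Folds were compared as percentiles within a list, and a region took its highest peak. A whole-number pileup was solved from fold and −log10 p with a pseudocount of 1, matching within 0.001 for 100% of peaks. Tests are exact permutation tests over libraries (Python 3.11.15, SciPy 1.17.1), which cannot pass 0.05 here. The calculation was tested on simulated lists. The rule for named regions takes the highest percentiles among lost, gained and kept regions and the largest percentile differences. Members, lists and rules were chosen with earlier results of these data known. Chromosomes other than the autosomes and X, motifs, promoters and gene names were not analysed here. Alternatives are given at the end.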

Additional observations from a re-analysis of the deposited data

How the results depend on the processing

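The share lost, counted over all peaks, was lower in dense windows than elsewhere in 39 of 39 comparisons under the alternatives. These reuse the same 6 libraries and are not independent, and the sorting by strength is not among them. The share open in all libraries was also higher in each of 15, a direction that the choice of windows at 0 h favours. Where 3 values stand together, they are for 24 h against 0 h, then for 1 h against 0 h, then for 24 h against 1 h. The sizes moved, and the cause was not tested where none is named. A limit of 70 regions gave 133 windows, 14948 regions and 58.2% open in all 6 libraries. A limit of 90 gave 9 windows and 1194 regions, with 62.1% open in all 6, 5.85% lost at 24 h against 0 h, 1.56% gained at 1 h, 2.40% lost at 24 h against 1 h, strong shares of 0% lost and 0.377% gained there, and a median percentile difference that turned to 0.185. Counting windows on 0h replicate 1 or 2 alone gave 122 or 133 windows, 14066 or 15198 regions, 56.4% or 56.5% open in all 6, and 3.18% or 3.24% gained at 24 h against 0 h. Peaks with a −log10 q of at least 5 gave 64.0% open in all 6, 1.65% gained at 1 h, strong losses of 2.23%, 0.972% and 0.256%, and a share difference that turned to −0.00875. With strong set at 15 these losses were 0.808%, 0.179% and 0%, and strong gains at 24 h against 1 h 0%.

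Lists of one length gave 57.4% open in all 6; losses were 4.47%, 3.24% and 2.55%, gains 5.42%, 3.39% and 3.39%, strong gains 1.16%, 0.578% and 0.620%, and strong losses at 1 h 0.994%. Requiring peaks to cover 50% of a region gave 45.1% open in all 6, losses of 9.88%, 4.98% and 8.001%, gains of 4.50% and 4.38% against 0 h, strong losses of 3.47% at 24 h against 0 h and 1.86% at 24 h against 1 h, and strong gains of 0.979% and 0.409% against 0 h.

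Leaving out single libraries, so that fewer had to meet each condition, gave losses of 9.89% to 11.8%, 6.87% to 9.31% and 6.27% to 8.83% and gains of 4.23% to 7.05%, 3.68% to 6.51% and 4.03% to 6.73%. Strong losses were 1.91% to 2.36%, 0.720% to 1.04% and 0.104% to 0.219%, strong gains 0.240% to 0.439%, 0% to 0.135% and 0.160% to 0.439%, and 60.7% to 61.9% were open in all libraries left. The share difference ran from −0.0596 to 0.315 and the percentile difference from −2.29 to 2.04, both turning sign.

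With the replicate number as a block, both differences between 24 h and 1 h stayed at 0.128 and −0.123 (exact permutation p = 1). Same-numbered libraries correlated at 0.077, 0.0953 and −0.000327 in their deviations from the time means. Yet at each time replicate 1 had the higher share of its list in dense windows and the lower median percentile. Whether a shared number marks a batch was not tested. Depth is unknown, and the regions lost at 24 h had median −log10 q values of 5.86 and 5.94 in the 0 h libraries, against 24.5 and 22.2 for those open in all 6.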
